A study of Mus musculus with 21 samples.

Results

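The 8 genes followed here act as feedback inhibitors of the ERK pathway: the dual-specificity phosphatases Dusp4, Dusp5 and Dusp6, the Sprouty genes Spry1, Spry2 and Spry4, and the Sprouty-related genes Spred1 and Spred2. They were chosen by name, as the 8 of 31053 Ensembl gene IDs in the count tables that carry these symbols. Earlier results of these data were known when the genes were chosen. The cells were E14Tg2a, an established line of male embryonic stem cells from strain 129 mice, with the short-lived green fluorescent protein GFPd2 knocked into 1 allele of Rex1. As a single line it gives no measure of variation between lines.

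Messenger RNA sequencing was done on 21 libraries in 7 groups of 3 replicates, named in the labels 2i+LIF PO, 2i+LIF LP, CH+LIF LP, LIF LP, 2i+LIF HP, CH+LIF HP and LIF HP. All groups share the cell line and a growth text in which cells spent a week in NDiff227 with 3 uM CHIR99021 (CH, a GSK3 inhibitor) and 1 uM PD0325901 (PD, an inhibitor of MEK, the kinase that activates ERK), after which CH, PD and LIF were given or withdrawn in alternation. By the group names, 2i+LIF has both inhibitors and the cytokine LIF, CH+LIF has CH and LIF, and LIF has neither inhibitor; the medium at harvest is known from these names alone. The series describes culture of zero passages, 1 month and 2 months, but the labels do not say what PO, LP and HP stand for or which of LP and HP was longer. Nothing says that replicates were separate cultures, so p-values measure the spread between these libraries, which may be technical.

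As background, FGF4 made by embryonic stem cells acts through FGF receptors, Ras, Raf and MEK to activate ERK, a signal that moves these cells out of naive pluripotency. ERK in turn raises the transcription of its own inhibitors. The Dusp phosphatases remove phosphate from ERK itself, Dusp6 in the cytoplasm and Dusp4 and Dusp5 in the nucleus, Sprouty proteins interfere with signalling between receptor and Raf, and Spred proteins bring neurofibromin to Ras and so hold Raf inactive. Because their transcripts depend on ERK, Dusp6 and Spry4 are often read as a gauge of MEK and ERK activity.

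Gene counts per library ranged from 1132126 to 3783043, and levels are given as CPM, counts per 1000000 after TMM scaling of library size. All 10 markers of naive embryonic stem cells had counts in every group, except Dppa3, which had none in LIF LP. The library labelled 2i+LIF LP replicate 1 stood apart from its replicates, with 31.7% of its gene counts from Gm42418, which lies over ribosomal RNA sequence, against 6.75% and 8.07% in the others. In 2i+LIF PO replicate 1, 39.1% of gene counts were mitochondrial, against 7.55% and 7.83%. Dusp6 was also at odds with what the group names would lead a reader to look for: it was high in replicates 2 and 3 of 2i+LIF LP and nearly without counts in LIF HP. File names place the PO libraries in another sequencing run, so run and PO cannot be told apart in any comparison with PO.

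Of the 8 genes, 6 passed the filter on low counts that left 10643 genes for testing; Dusp4 (42 counts over all libraries) and Spry1 (85 counts) did not. Differences were tested with edgeR's quasi-likelihood test in 1 fit of all 21 libraries, with Benjamini-Hochberg adjustment over all genes tested and a threshold of 0.05. A gene past that threshold is called changed. Per kilobase of exon, the mean level over all libraries was highest for Spry2, at 86.9 CPM per kb, far above Spred1 (5.96), Dusp6 (5.92), Dusp5 (3.66), Spred2 (2.57), Spry4 (1.03), Spry1 (0.756) and Dusp4 (0.413). Spry2 thus held most of the counts of the 8 genes, and its level weighs most in their sum. That sum lay between 84.4 and 119 CPM in LIF HP and between 321 and 473 CPM in LIF LP.

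**Figure D1:**
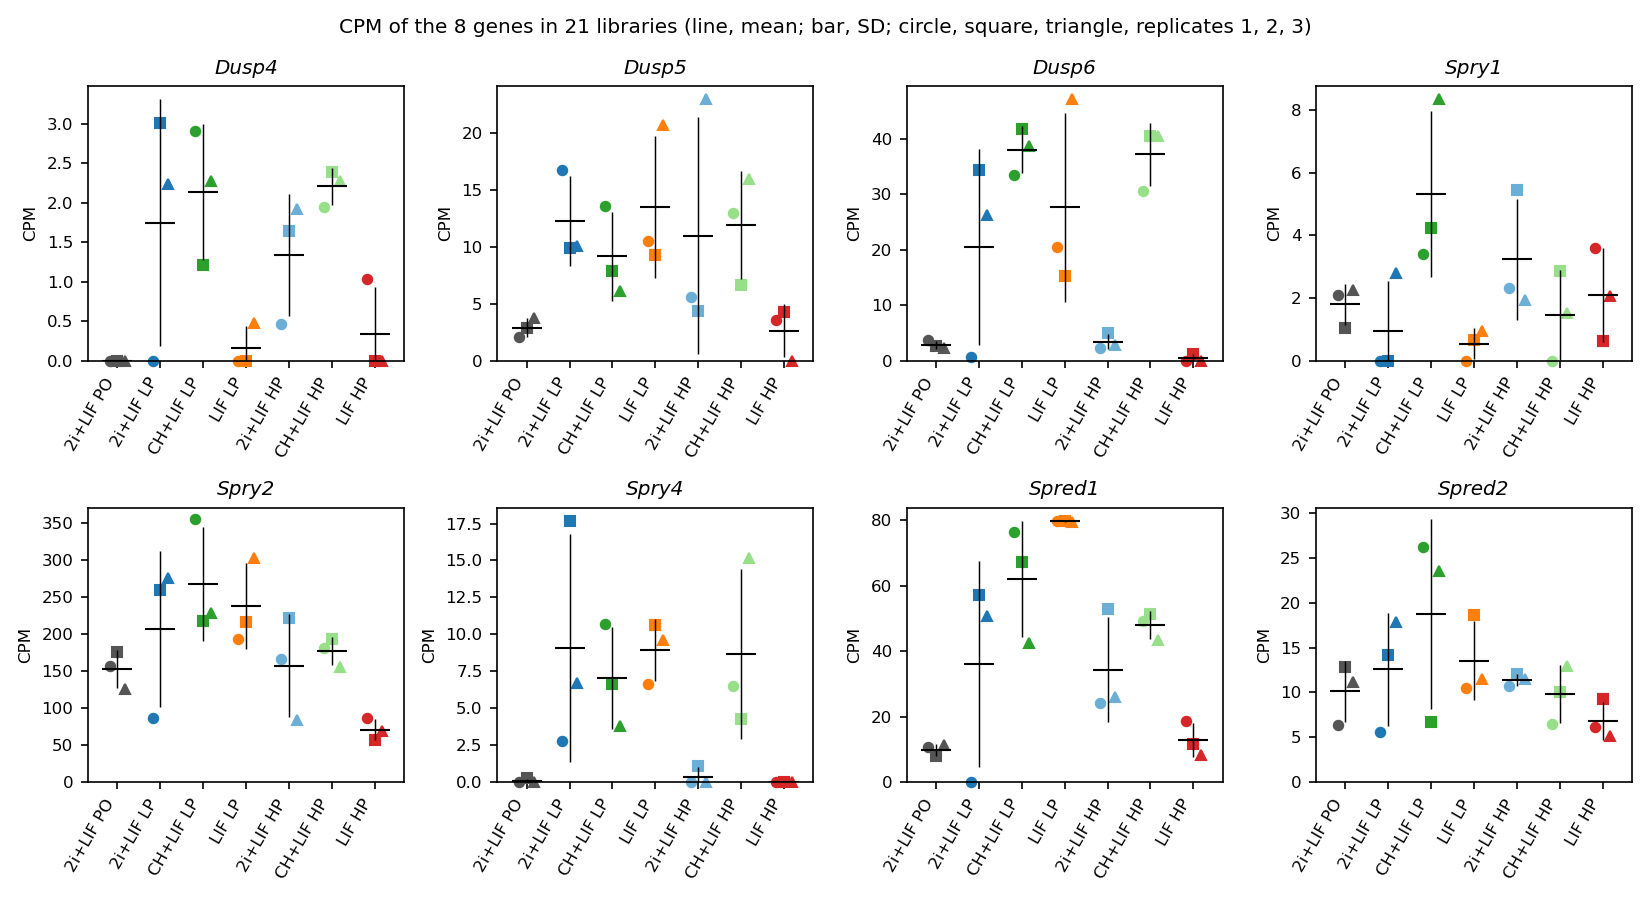
CPM of each gene (vertical axis, its own linear scale per panel) in the 7 groups; points are libraries, with circle, square and triangle for replicates 1, 2 and 3, the horizontal line is the mean and the bar 1 SD. Dusp6 and Spry4 are near 0 in 2i+LIF PO, 2i+LIF HP and LIF HP, and replicate 1 of 2i+LIF LP lies below its replicates for most genes but not for Dusp5.

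Dusp6 (ENSMUSG00000019960, chromosome 10, 99263231 to 99267489, GRCm38, plus strand) encodes the cytoplasmic ERK phosphatase. It had 33.4, 41.8 and 38.7 CPM in CH+LIF LP and 30.5, 40.5 and 40.4 CPM in CH+LIF HP. In LIF LP it had 20.4, 15.3 and 47.1 CPM, and in 2i+LIF LP 0.701, 34.4 and 26.3 CPM. These are the high groups, apart from the first 2i+LIF LP library. It was low, at 3.69, 2.61 and 2.24 CPM, in 2i+LIF PO and, at 2.32, 4.91 and 2.88 CPM, in 2i+LIF HP. In LIF HP only replicate 2 held any Dusp6, 2 counts or 1.23 CPM. By mean level the order was CH+LIF LP (38 ± 4.22 CPM, SD, n = 3), CH+LIF HP (37.1 ± 5.75), LIF LP (27.6 ± 17.1), 2i+LIF LP (20.5 ± 17.6), 2i+LIF HP (3.37 ± 1.36), 2i+LIF PO (2.85 ± 0.753) and LIF HP (0.411 ± 0.711). Neighbours among the first 4 overlap in their libraries, as do 2i+LIF HP and 2i+LIF PO and, through replicate 1 of 2i+LIF LP, both 2i+LIF groups, while all LIF HP libraries lie below all of 2i+LIF PO.

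Promoter sequence is shown for Dusp6, the gene with the widest range among the tested phosphatases, and for Dusp5, in which most of the motif matches fell. Both are the 250 bases before the RefSeq start on GRCm38.p6, plus strand, 5′ to 3′, with motif matches in capitals.
Dusp6, chr10:99262981-99263230: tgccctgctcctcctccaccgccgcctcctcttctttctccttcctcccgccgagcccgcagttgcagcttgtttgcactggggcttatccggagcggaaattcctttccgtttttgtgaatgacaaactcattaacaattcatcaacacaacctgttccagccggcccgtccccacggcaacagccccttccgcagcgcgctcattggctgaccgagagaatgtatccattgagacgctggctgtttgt
Dusp5, chr19:53528895-53529144: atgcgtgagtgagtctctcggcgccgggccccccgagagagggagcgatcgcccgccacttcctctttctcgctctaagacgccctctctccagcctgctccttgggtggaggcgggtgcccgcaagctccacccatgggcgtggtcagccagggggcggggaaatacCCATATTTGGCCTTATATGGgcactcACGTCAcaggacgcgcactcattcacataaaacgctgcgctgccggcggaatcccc
The motifs searched on both strands were CCGGAA (ETS core), the CArG box of SRF, TGANTCA (AP-1), TGACGT (CRE core), CTTTGAT (TCF/LEF) and TTCNNNGAA (STAT); no pair of matches overlapped. These motifs were chosen after the sequences had been read. RefSeq windows were used for 6 of the 8 genes. No window was used for Dusp4 or Spry4, so these genes were not searched and nothing is said of their motifs. Dusp5 held 2 adjoining CArG boxes, CCATATTTGG beginning 82 bases and CCTTATATGG 72 bases before the start, and the CRE core on the minus strand, read as ACGTCA, 56 bases before it. Spred2 held ACGTCA 52 bases before its RefSeq start, and the windows of Dusp6, Spry1, Spry2 and Spred1 held none of the 6 motifs. The windows of Dusp5 and Spred2 run past the gene starts listed with the positions below, to 53529144 and 19924441. The Spred2 match thus lies inside the gene as listed. Of 32851 windows of this length, 1.47% held a CArG box, 6.47% the CRE core, 12% the ETS core, 6.75% AP-1, 3.21% TCF/LEF and 7.02% STAT. A match describes letters in this window and says nothing of binding.

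Dusp5 (ENSMUSG00000034765, chromosome 19, 53529109 to 53542431, plus strand) encodes the nuclear ERK phosphatase. It had 2.11, 2.88 and 3.74 CPM in 2i+LIF PO and 3.61, 4.31 and 0 CPM in LIF HP. In LIF LP it had 10.5, 9.3 and 20.7 CPM. Elsewhere its libraries ranged from 4.36 to 23 CPM, both of these extremes within 2i+LIF HP. Dusp5 was therefore low in 2i+LIF PO and LIF HP and scattered widely elsewhere.

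Dusp4 (ENSMUSG00000031530, chromosome 8, 34807297 to 34819894, plus strand), the other nuclear phosphatase, was close to the limit of detection and was not tested. It had no count in 2i+LIF PO, 1 count over the LIF LP libraries and 2 over those of LIF HP, against 11 counts each in 2i+LIF LP, CH+LIF LP and CH+LIF HP and 6 in 2i+LIF HP. By pooled counts it was 11.8-fold lower in LIF LP than in CH+LIF LP (95% counting interval 1.72 to 508) and 5.04-fold lower in LIF HP than in CH+LIF HP (1.1 to 46.8). Counting intervals cover counting error only and leave out the spread between libraries.

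Spry4 (ENSMUSG00000024427, chromosome 18, 38586247 to 38601415, minus strand) had no count in any LIF HP library, where 3 counts, the limit that a count of 0 allows, would be 1.55, 1.85 and 3.09 CPM in replicates 1, 2 and 3. It had 1 count over the 2i+LIF PO libraries and 2 over those of 2i+LIF HP, all in replicate 2 in both cases. Its other groups were higher. Spry4 had 2.8, 17.7 and 6.71 CPM in 2i+LIF LP, and 10.7, 6.66 and 3.8 CPM in CH+LIF LP. It had 6.61, 10.6 and 9.62 CPM in LIF LP, and 6.49, 4.29 and 15.2 CPM in CH+LIF HP. The 4 groups high in Spry4 are those high in Dusp6, and their Spry4 values overlap one another: the means were 9.06 ± 7.7 CPM in 2i+LIF LP, 8.95 ± 2.09 in LIF LP, 8.67 ± 5.79 in CH+LIF HP and 7.04 ± 3.45 in CH+LIF LP (SD, n = 3).

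**Figure D2:**
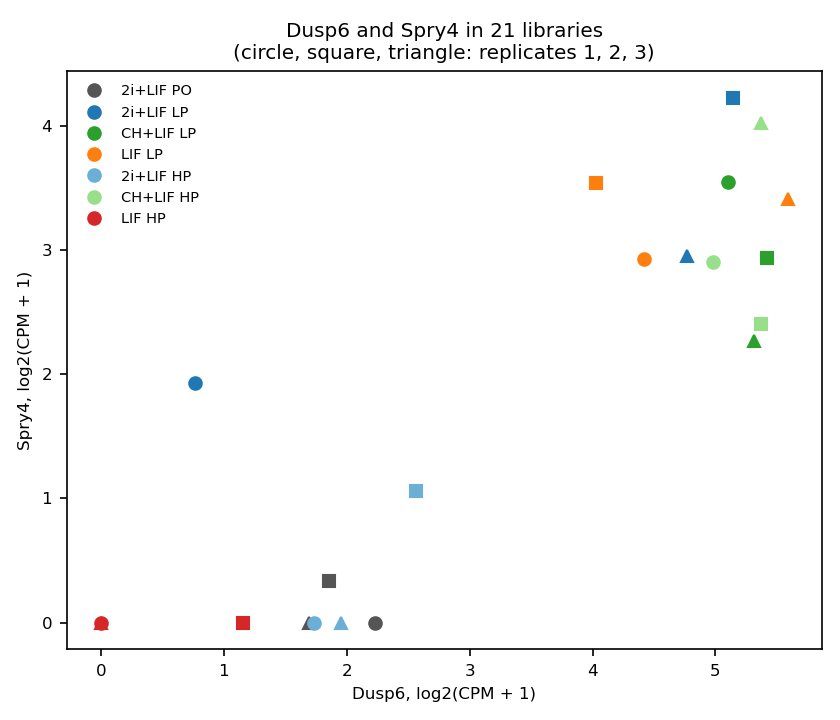
Dusp6 (horizontal) and Spry4 (vertical) in each library as log2(CPM + 1), coloured by group, with circle, square and triangle for replicates 1, 2 and 3. The libraries of 2i+LIF PO, 2i+LIF HP and LIF HP lie at the lower left, those of CH+LIF LP, LIF LP and CH+LIF HP at the upper right, and the 3 libraries of 2i+LIF LP are split, with replicate 1 apart at 0.701 CPM of Dusp6 and 2.8 CPM of Spry4.

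Spry2 (ENSMUSG00000022114, chromosome 14, 105891947 to 105896819, minus strand), the most abundant of the 8 genes, had 86.1, 57.3 and 69 CPM in LIF HP and 193, 216 and 303 CPM in LIF LP. Its highest library was CH+LIF LP replicate 1, at 356 CPM. Outside LIF HP, the lowest libraries were 2i+LIF LP replicate 1, at 86.3 CPM, and 2i+LIF HP replicate 3, at 83.4 CPM. Spry1 (ENSMUSG00000037211, chromosome 3, 37639947 to 37644598, plus strand) was not tested and had at most 8.35 CPM in any library. Its counts were highest in CH+LIF LP, with 7, 7 and 11, and summed to 3 in LIF LP, a pooled difference of 8.94-fold (95% counting interval 2.73 to 46.3).

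Spred1 (ENSMUSG00000027351, chromosome 2, 117121374 to 117182279, plus strand) had 79.9, 79.7 and 79.4 CPM in LIF LP, 10.6, 7.84 and 11.2 CPM in 2i+LIF PO and 18.6, 11.7 and 8.24 CPM in LIF HP. The close values in LIF LP contrast with 0, 57.3 and 50.9 CPM in 2i+LIF LP. Spred2 (ENSMUSG00000045671, chromosome 11, 19924375 to 20024026, plus strand) had group means from 6.86 ± 2.12 CPM in LIF HP to 18.8 ± 10.6 CPM in CH+LIF LP (SD, n = 3). Spred2 was called in none of the 19 comparisons by edgeR, and its adjusted p for any difference among the 6 cultured groups was 0.388 (unadjusted p = 0.191). In that joint test, Dusp6 (adjusted p = 0.000169), Spry4 (0.00254) and Spry2 (0.0236) were called, 3 of 6 tested genes, where 13.1% of all genes were called. Leaving out LIF HP replicate 2 or replicate 3 left 2 of the 6, and leaving out 2i+LIF PO replicate 1 or 2i+LIF LP replicate 1 gave 4.

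Among the media, LIF had the most genes of the set called between LP and HP. No gene of the set was called for a different change in LIF than in 2i+LIF. Comparing LIF HP with LIF LP, all of Dusp6, Spry4, Spry2, Spred1 and Dusp5 were lower in HP, 5 of 6 tested genes with none higher, where 4.63% of all genes were called lower. All 6 tested genes had lower CPM in every LIF HP library than in any LIF LP library, as did 19.3% of all genes. The median log2 fold change of the 6 genes was -2.4, and that of all genes was 0.01. In pooled counts, Dusp6 was 66.3-fold lower (95% counting interval 18.1 to 553; adjusted p = 0.000568). Spry4, without a count in LIF HP, was at least 13.4-fold lower against 3 counts over the group (adjusted p = 0.00385). That limit was 7.69, 8.62 and 10.6-fold without replicate 1, 2 or 3 of LIF HP, and 12.4 to 15.2-fold without a LIF LP library. Dusp6 and Spry4 had the widest differences of the tested genes between LIF HP and LIF LP. The fitted Dusp6 difference of -5.78 on the log2 scale was -5.14 without LIF LP replicate 3, -5.13 without LIF HP replicate 1 and -8.75 without LIF HP replicate 2, which leaves that group no count. Spry2 fell by 1.74 ± 0.4 on the log2 scale (SE; 3.35-fold; adjusted p = 0.00803), and Spred1 fell by 2.59 ± 0.66 (6.02-fold; adjusted p = 0.0146). The call for Spred1 ended when LIF HP replicate 2 or replicate 3 was left out (adjusted p of 0.0682 and 0.077). Dusp5 fell by 2.2 ± 0.71 on the log2 scale (4.59-fold; adjusted p = 0.048), at the edge of the threshold. Its call was lost in 14 of 28 alternatives, the replicate block among them (adjusted p = 0.0571), over which the adjusted p ran from 0.0116 to 0.17; leaving out any 1 library of either group ended it. Spred2, at -0.95 ± 0.54, was not called (adjusted p = 0.274).

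In bulk libraries, fewer cells expressing a gene and less RNA per cell cannot be told apart. Several marker lists and library measures separated LIF HP from LIF LP without overlap, and their part in the results was not tested. The 4 primed epiblast markers summed to 20.6 to 23.4 CPM in LIF HP, where Fgf5 and Pou3f1 were at 0, and to 57.8 to 71.7 CPM in LIF LP, where all 4 had counts. The 6 feeder fibroblast markers were also lower, at 7.39 to 9.79 CPM in LIF HP (2 of 6 with counts, Col1a2, Col3a1, Dcn and Postn at 0) against 11.3 to 36.4 CPM (4 of 6, Col3a1 and Dcn at 0). The 6 trophoblast markers were higher, at 10.3 to 23.2 CPM in LIF HP (4 of 6 with counts, Elf5 and Ascl2 at 0) against 1.33 to 7.16 CPM (3 of 6, Cdx2, Elf5 and Hand1 at 0). Entries aligned at more than 1 place made up 30.3 to 35.4% in LIF HP and 23.1 to 25.6% in LIF LP. TMM factors were 0.653 to 0.962 against 1.09 to 1.22, and entries outside annotated genes 8.46 to 16.7% against 17 to 24.6%. Entries ambiguous between genes made up 0.549 to 0.683% in LIF HP and 0.303 to 0.384% in LIF LP, and at most 0.546% in any library outside LIF HP. Mitochondrial shares overlapped, at 3.48 to 9.35% in LIF HP and 2.74 to 8.01% in LIF LP.

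**Figure D3:**
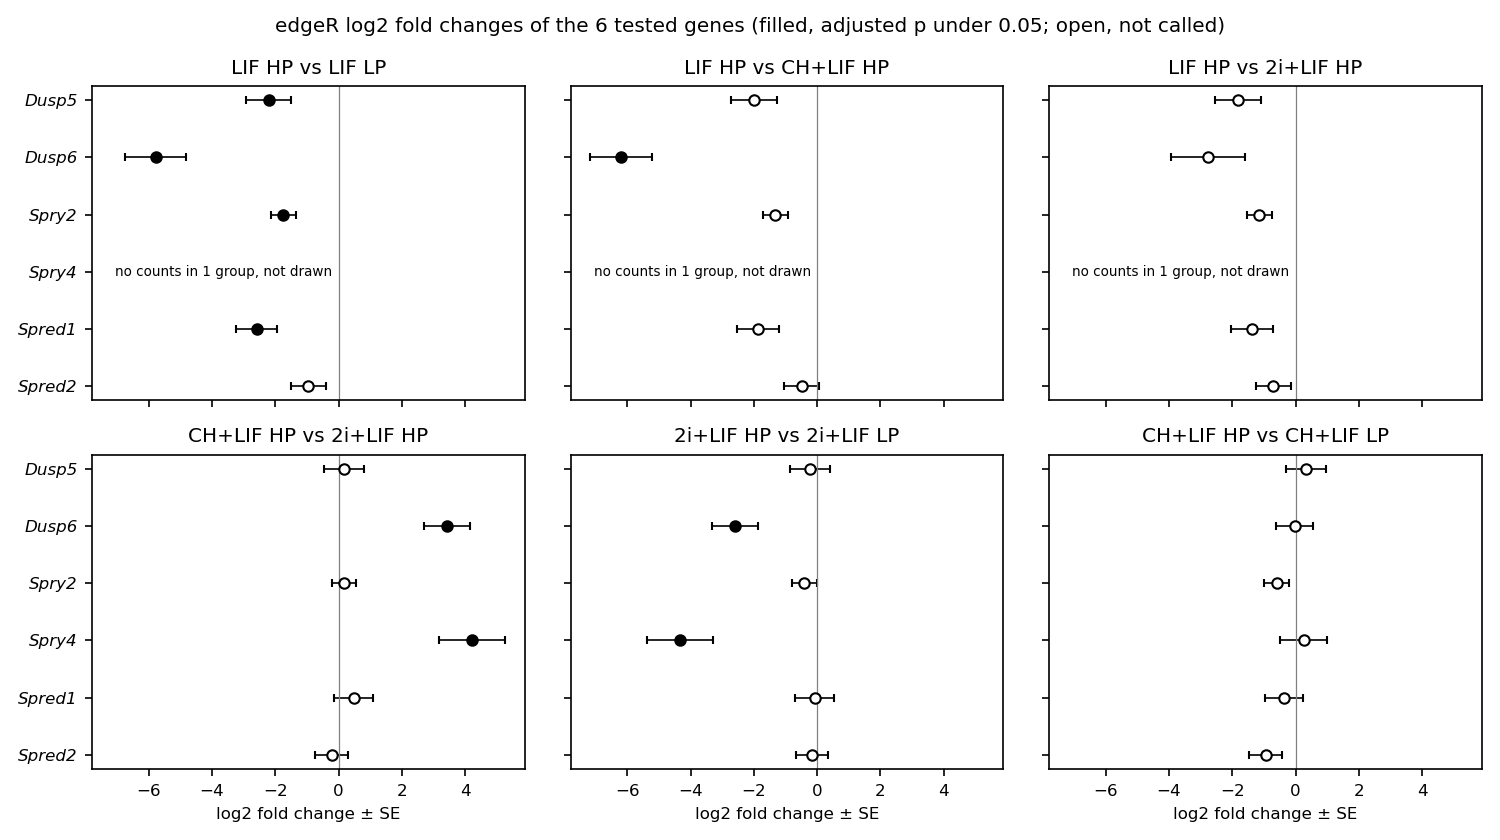
Log2 fold changes from edgeR (horizontal axis) with their standard errors for the 6 tested genes in 6 comparisons; filled points are called at an adjusted p under 0.05 and open points are not. Fold changes of Spry4 against LIF HP are not drawn because it had no count there, and those of Dusp6 rest on 2 counts. Of the comparisons drawn, LIF HP with LIF LP has the most calls, 5 of 6 genes, and CH+LIF HP with CH+LIF LP has 0.

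In CH+LIF, by contrast, no gene of the set was called between HP and LP. The count was 0 of 6 by edgeR and 0 by DESeq2, with 0 at an unadjusted p under 0.05, and 0.0094% of all genes were called. Dusp6 differed by -0.03 ± 0.59 on the log2 scale (SE) and Spry4 by 0.25 ± 0.75. Spry2 had lower CPM in every CH+LIF HP library than in any CH+LIF LP library, as did 7.13% of all genes, with a difference of -0.6 ± 0.39 that was not called (adjusted p = 1).

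In 2i+LIF, Dusp6 and Spry4 were lower in HP than in LP, 2 of 6 tested genes with none higher, where 2.05% of all genes were called lower. Dusp6 fell by 2.6 ± 0.72 on the log2 scale (SE; 6.07-fold; adjusted p = 0.0392), and its groups overlapped through the single Dusp6 count in 2i+LIF LP replicate 1. Without that library it fell by 3.12 (adjusted p = 0.000585). Spry4 was 25.9-fold lower in pooled counts (95% counting interval 6.85 to 219; adjusted p = 0.0182). The calls were sensitive to the libraries kept. The Dusp6 call ended without replicate 2 or 3 of 2i+LIF LP (adjusted p of 0.161 and 0.0739) or without replicate 1, 2 or 3 of 2i+LIF HP (0.113, 0.0951 and 0.131). The Spry4 call ended without 2i+LIF LP replicate 2 (0.104) or without replicate 1 or 3 of 2i+LIF HP (0.0674 and 0.0768). The fitted Spry4 difference, -4.34 on the log2 scale, was -3.4 without 2i+LIF LP replicate 2, which held 41 of the group's 57 counts, and -3.68 without 2i+LIF HP replicate 1. It was -7.16 without 2i+LIF HP replicate 2, which leaves that group no count. The Dusp6 difference was -2.01 without 2i+LIF LP replicate 2. The 4 primed epiblast markers, all with counts in both groups, summed to 18.2 to 51.1 CPM in 2i+LIF HP and 61 to 102 CPM in 2i+LIF LP. The 6 trophoblast markers summed to 48.3 to 96.5 CPM in 2i+LIF HP and 11.7 to 17.2 CPM in 2i+LIF LP, with 5 of 6 having counts and Elf5 at 0 in both. The 5 markers of cells resembling the 2-cell embryo summed to 7.67 to 11.2 CPM in 2i+LIF HP, where 4 of 5 had counts and Zscan4f was at 0, and to at most 2.1 CPM in 2i+LIF LP, where Tcstv3 alone had counts. Their part in the results was not tested.

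The difference between HP and LP was itself compared between media. Between LIF and CH+LIF, Dusp6 was the only one of the 6 tested genes called, with a difference of -5.75 ± 1.18 on the log2 scale (SE; adjusted p = 0.0301), where 0.423% of all genes were called. As LIF HP held 2 counts of Dusp6, the size of this value depends on the prior count of the fit, and it was -8.73 without LIF HP replicate 2 and -5.11 without LIF HP replicate 1 or LIF LP replicate 3. The call ended without replicate 2 or 3 of CH+LIF LP (adjusted p of 0.0576 and 0.0842), LIF LP replicate 3 (0.0857), replicate 2 or 3 of CH+LIF HP (0.0651 and 0.0784), or replicate 1, 2 or 3 of LIF HP (0.0857, 0.0619 and 0.096). Spry4 was not called (adjusted p = 0.0565); without 2i+LIF LP replicate 1, a library outside these groups that enters the shared estimate of spread, Spry4 (adjusted p = 0.0222) and Spred1 (0.0209) were called as well. Between LIF and 2i+LIF the count was 0 of 6 by edgeR and 0 by DESeq2, with 4 at an unadjusted p under 0.05 and 0.15% of all genes called. Between CH+LIF and 2i+LIF it was 0 by both tools, with 2 at an unadjusted p under 0.05 and 0.0188% of all genes called. There, Dusp6 was called when 2i+LIF LP replicate 1 was left out (adjusted p = 0.0394).

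Among HP libraries, Dusp6 and Spry4 were highest in CH+LIF. Against 2i+LIF HP, both were higher in CH+LIF HP, 2 of 6 tested genes with none lower, where 1.1% of all genes were called higher. Dusp6 rose by 3.43 ± 0.72 on the log2 scale (SE; 10.8-fold; adjusted p = 0.00781) and stayed called in all 28 alternatives. Spry4 was 19.8-fold higher in pooled counts (95% counting interval 5.13 to 169; adjusted p = 0.032). Its call ended without replicate 1 or 3 of 2i+LIF HP (adjusted p of 0.134 and 0.128) or replicate 1 or 3 of CH+LIF HP (0.0554 and 0.187). Its fitted difference of 4.22 on the log2 scale was 3.56 when either 2i+LIF HP replicate 1 or CH+LIF HP replicate 3 was left out. Leaving out 2i+LIF HP replicate 2 gave 7.04, with no count remaining in 2i+LIF HP. The trophoblast markers summed to 13.8 to 25.9 CPM in CH+LIF HP, with Cdx2 and Elf5 at 0, below their range in 2i+LIF HP, and the 5 mesendoderm markers to 7.16 to 10.7 CPM against 24.9 to 55.1 CPM, with Gsc and Foxa2 at 0 in CH+LIF HP and none at 0 in 2i+LIF HP. The markers of cells resembling the 2-cell embryo were lower too, at 0.762 to 6.49 CPM in CH+LIF HP, with 4 of 5 having counts and Zscan4f at 0. Higher in CH+LIF HP were the primed epiblast markers, at 55.8 to 74.6 CPM with counts for all 4, and the feeder fibroblast markers, at 11 to 20.6 CPM against 2.88 to 10.4 CPM, with Col3a1, Dcn and Postn at 0 in both. The mitochondrial share was higher as well, at 3.62 to 9.84% against 1.25 to 3.05%. Their part in the results was not tested.

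LIF HP was lower than CH+LIF HP in the same genes. Dusp6 and Spry4 were called, 2 of 6 tested genes with none higher, where 0.874% of all genes were called lower. In pooled counts Dusp6 was 84.7-fold lower (95% counting interval 23.1 to 705; adjusted p = 0.000988), and Spry4 was at least 11.9-fold lower (adjusted p = 0.0153). That limit was 6.81, 7.64 and 9.36-fold without replicate 1, 2 or 3 of LIF HP, 7.9-fold without CH+LIF HP replicate 3, which held 20 of the group's 39 counts, and 12.9 and 15.9-fold without CH+LIF HP replicate 1 or 2. The Spry4 call ended without CH+LIF HP replicate 3 (adjusted p = 0.0765) or without replicate 1, 2 or 3 of LIF HP (0.0678, 0.0988 and 0.0625). Dusp5, Spry2 and Spred1 also lay below every CH+LIF HP library without being called by edgeR (adjusted p of 0.178, 0.105 and 0.17). DESeq2 called Spry2 (adjusted p = 0.0307). Non-overlapping lower values were thus found for 5 of 6 genes, and for 14.6% of all genes. Without 2i+LIF LP replicate 1, Spry2 (adjusted p = 0.0281) and Spred1 (0.00403) were called too, for 4 of 6. The summed primed epiblast and feeder fibroblast markers given above were lower in every LIF HP library than in any CH+LIF HP library. Entries aligned at more than 1 place were 25.6 to 28.3% in CH+LIF HP, below their range in LIF HP, and TMM factors were 1 to 1.11, above theirs. The part of these in the results was not tested. The fitted Dusp6 difference of -6.2 on the log2 scale was -5.54 without LIF HP replicate 1 and -9.17 without replicate 2, which leaves LIF HP no count.

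Between LIF HP and 2i+LIF HP, edgeR called no gene of the set and 1.68% of all genes lower. In edgeR, 4 of 6 had an unadjusted p under 0.05. DESeq2, whose share over all genes is not given, called 1. Dusp5, Dusp6, Spred1 and Spred2 had lower CPM in every LIF HP library than in any 2i+LIF HP library, 4 of 6 genes, as did 13.5% of all genes. Dusp6 was 7.66-fold lower in pooled counts (95% counting interval 1.82 to 68.4; adjusted p = 0.185). This ratio was 4.38-fold without LIF HP replicate 1 and at least 3.28-fold without replicate 2, which leaves LIF HP no count; leaving out other libraries of these groups gave 5.68-fold to 9.45-fold. With 2i+LIF LP replicate 1 left out of the fit, Dusp6 (adjusted p = 0.0463), Spry2 (0.0305) and Spred1 (0.0201) were called. The comparison therefore turned on a library outside both groups. The share of all genes called in that fit is not given. Marker lists and library measures separated these groups without overlap, and their part in the results was not tested. The naive markers were higher in LIF HP, at 2510 to 2860 CPM against 1640 to 2380 CPM, with all 10 having counts in both. The trophoblast markers were lower in LIF HP, in the ranges given above. Those of cells resembling the 2-cell embryo were lower too, at no more than 2.46 CPM in LIF HP (2 of 5 with counts, Zscan4f, Tcstv1 and Tcstv3 at 0). The mitochondrial share was 3.48 to 9.35% in LIF HP and 1.25 to 3.05% in 2i+LIF HP, and entries outside annotated genes were 8.46 to 16.7% and 17.2 to 21.5%.

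Among LP libraries, no gene of the set was called between media. For each pair of media (CH+LIF with 2i+LIF, LIF with CH+LIF, and LIF with 2i+LIF), the count was 0 of 6 by edgeR and 0 by DESeq2, with 0 at an unadjusted p under 0.05. Of all genes, 0%, 0.047% and 0.489% were called in these comparisons. Spred1 was higher in every LIF LP library than in any CH+LIF LP or 2i+LIF LP library, the 1 gene of 6 to do so, as did 7.16% and 8.37% of all genes; it was not called (adjusted p of 1 and 0.487).

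Within 2i+LIF LP, replicate 1 differed from replicates 2 and 3 in Dusp6, Spred1 and Spry2, while replicates 2 and 3 had overlapping counting intervals for every gene of the 8 except Spry4. In replicate 1, Dusp6 had 1 count, 0.701 CPM (95% exact Poisson interval 0.0178 to 3.91), and Spred1 had none (0 to 2.59 CPM). In replicates 2 and 3, Dusp6 had 34.4 CPM (27.3 to 42.9) and 26.3 CPM (19.3 to 34.9), and Spred1 had 57.3 CPM (47.9 to 67.9) and 50.9 CPM (41 to 62.5). For these genes the intervals of replicate 1 lie far below those of the others. Spry2, at 86.3 CPM (71.7 to 103), lay below the 259 CPM (238 to 280) and 276 CPM (252 to 302) of replicates 2 and 3. Spry4, at 2.8 CPM (0.764 to 7.18), was below 17.7 CPM (12.7 to 23.9) in replicate 2, but its interval overlapped that of 6.71 CPM (3.47 to 11.7) in replicate 3. Dusp5 went the other way, at 16.8 CPM (10.8 to 25) in replicate 1 against 9.9 CPM (6.28 to 14.9) and 10.1 CPM (5.96 to 15.9), with overlapping intervals. Spred2 had 5.61 CPM (2.42 to 11.1) in replicate 1 and 14.2 CPM (9.78 to 20) and 17.9 CPM (12.2 to 25.3) in replicates 2 and 3. Dusp4 had 0, 7 and 4 counts in replicates 1, 2 and 3, and Spry1 had 0, 0 and 5. The 8 genes summed to 112 CPM in replicate 1 and to 395 and 393 CPM in replicates 2 and 3. The part of the high Gm42418 share of replicate 1 in these values was not tested.

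**Figure D4:**
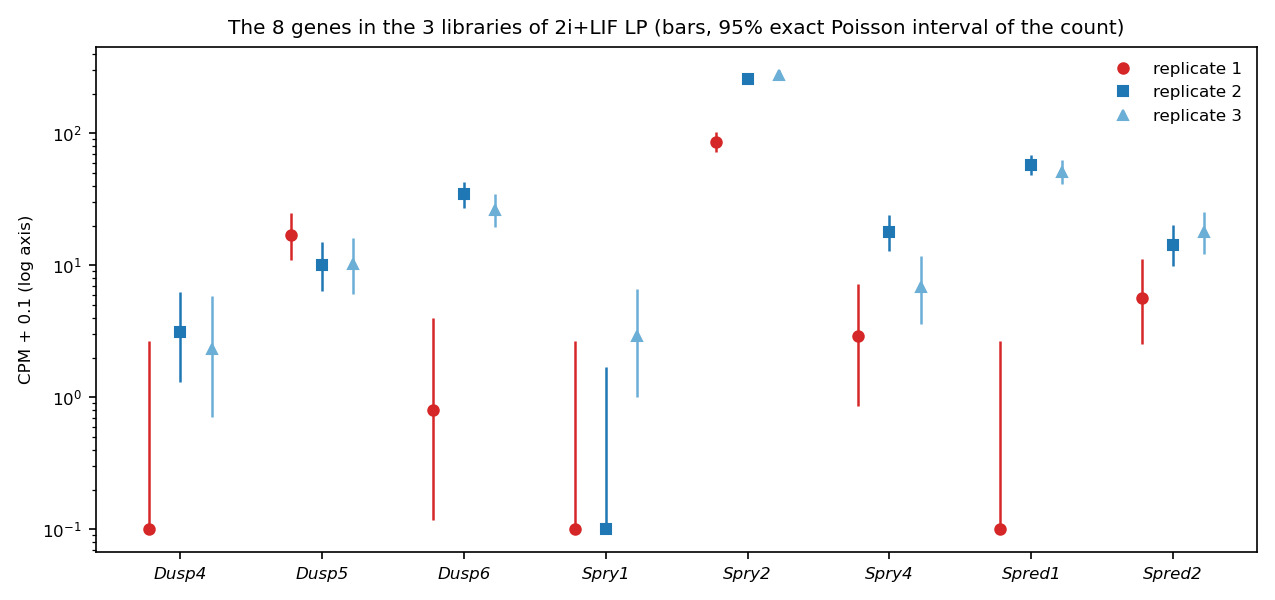
CPM + 0.1 on a log axis for the 8 genes in the 3 libraries of 2i+LIF LP, with 95% exact Poisson intervals of the counts; points at the foot of the axis have no counts. Replicate 1 (red circles) is lowest for Dusp6, Spry2, Spry4, Spred1 and Spred2 and highest for Dusp5.

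Against 2i+LIF PO, Dusp6 and Spry4 were higher in 2i+LIF LP, CH+LIF LP, LIF LP and CH+LIF HP. These comparisons share the PO libraries, and run and PO cannot be told apart. Called higher were 2 of 6 tested genes in 2i+LIF LP (2.79% of all genes), 3 in CH+LIF LP (4.24%), 4 in LIF LP (5.84%) and 3 in CH+LIF HP (3.36%), with none lower. Spry4 was 100-fold higher in 2i+LIF LP by pooled counts (95% counting interval 17.3 to 4030), 73.5-fold in CH+LIF LP (12.4 to 2980), 86.5-fold in LIF LP (14.8 to 3490) and 76.7-fold in CH+LIF HP (13 to 3100), each against 1 count in PO. Dusp6 rose by 2.89 ± 0.69 on the log2 scale in 2i+LIF LP (adjusted p = 0.0162), 3.75 ± 0.7 in CH+LIF LP (0.00176), 3.3 ± 0.69 in LIF LP (0.00277) and 3.72 ± 0.7 in CH+LIF HP (0.00281). Without 2i+LIF LP replicate 1, the rise in 2i+LIF LP was 3.44 (adjusted p = 0.000103), and the call ended without replicate 2 or 3 of PO or replicate 2 of 2i+LIF LP (0.0663, 0.0721 and 0.0681).

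Without 2i+LIF LP replicate 2 the Dusp6 rise there was 2.3, and without LIF LP replicate 3 that in LIF LP was 2.66 (adjusted p = 0.0264). For Spry4, the fitted rise was 5.81 on the log2 scale in 2i+LIF LP and 4.87 without its replicate 2. In CH+LIF HP it was 5.68, and 5.03 without its replicate 3. In 2i+LIF LP, CH+LIF LP, LIF LP and CH+LIF HP in turn, the pooled Spry4 ratios were 58.9, 43.2, 50.8 and 45.1-fold without PO replicate 3. Leaving out PO replicate 2 leaves PO no Spry4 count. The ratios were then at least 20.3, 14.9, 17.5 and 15.5-fold in the same order.

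Mitochondrial shares and marker lists also separated PO from some of these groups, and their part in the results was not tested. The mitochondrial share was 7.55 to 39.1% in PO, against 0.21 to 4.61% in 2i+LIF LP and 1.97 to 4.84% in CH+LIF LP, and overlapped that of LIF LP and CH+LIF HP. Gene counts per library were at least 2998748 in PO and at most 2165518 elsewhere. The 10 naive markers, at 3560 to 4170 CPM in PO, were lower in CH+LIF LP (2200 to 2730), LIF LP (2340 to 2760) and CH+LIF HP (2320 to 2620), as were the 5 mesendoderm markers (15 to 19.9 CPM in PO, with T and Foxa2 at 0, against 5.33 to 7.59, 3.32 to 11.6 and 7.16 to 10.7 CPM). The 4 primed epiblast markers, at 39 to 68.1 CPM in PO, were higher in CH+LIF LP (at least 83.5 CPM). Trophoblast markers, at 16.2 to 70.8 CPM in PO with Elf5 at 0, were lower in LIF LP. Markers of cells resembling the 2-cell embryo, all at 0 in PO, were at 1.1 to 1.99 CPM in LIF LP and in the range given above in CH+LIF HP.

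Spred1 was also higher than in PO in CH+LIF LP (log2 difference 2.65 ± 0.65; adjusted p = 0.0134), LIF LP (3.01 ± 0.66; 0.00397) and CH+LIF HP (2.28 ± 0.65; 0.0372). The CH+LIF LP call ended without its replicate 1 (0.0512), and the CH+LIF HP call ended on leaving out any 1 library of either group, with adjusted p between 0.0537 and 0.111. In 2i+LIF LP, Spred1 was called only without that group's replicate 1 (adjusted p = 0.000211 in place of 0.0841). Dusp5 was higher in LIF LP (2.16 ± 0.66; adjusted p = 0.0324), a call that ended without replicate 1, 2 or 3 of PO or replicate 2 or 3 of LIF LP (0.0644, 0.0898, 0.0634, 0.0513 and 0.154). None of the 6 genes was called by edgeR in 2i+LIF HP, where edgeR called 10.6% of all genes. There, 2 had an unadjusted p under 0.05 in edgeR, and DESeq2 called 2. None was called by edgeR in LIF HP either, where edgeR called 12.3% of all genes. There, 2 had an unadjusted p under 0.05 in edgeR, and DESeq2 called 1. The shares of all genes that DESeq2 called are not given. Leaving out 2i+LIF LP replicate 1 gave 1 call in 2i+LIF HP and 2 in LIF HP. In LIF HP, Dusp6 and Spry2 lay below every PO library, 2 of 6 genes, as did 15.5% of all genes. The summed naive, primed epiblast and feeder fibroblast markers were likewise lower in every LIF HP library than in any PO library, the feeder markers at 14.1 to 21.4 CPM in PO with Postn at 0. Entries aligned at more than 1 place were higher in LIF HP than the 24.3 to 27.3% of PO, and the part of these in the results was not tested.

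Other genes of the pathway were taken from 3 lists. Of 15 transcription factors and early genes that ERK is known to raise, or that act on them, 13 were tested, and LIF HP had 5 lower and none higher than LIF LP, where 4.63% of all genes were lower. Etv4, an ETS factor induced by FGF signalling, had 10.9 ± 5 CPM in LIF HP, against 106 ± 16.2 CPM in LIF LP (SD, n = 3; adjusted p = 1.3e-05), and Etv1, of the same family, 5.45 ± 2.32 and 42.1 ± 5.11 CPM (0.00125). The immediate early gene Egr1 had 0.377 ± 0.33 and 37.7 ± 18.6 CPM (0.00135) and Phlda1 9.29 ± 3.16 and 36.6 ± 10.1 CPM (0.0285). The fifth was Fos, at 3.16 ± 2.65 and 15.4 ± 3.39 CPM (0.0314), named after its values were seen. Etv5, the third member of the Etv1 and Etv4 family, was called in none of the 19 comparisons by edgeR, with none at an unadjusted p under 0.05 and group means from 207 ± 33.6 CPM in LIF HP to 301 ± 84.3 CPM in CH+LIF HP.

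The same list held 3 lower genes of 13 in LIF HP against CH+LIF HP, Etv4, Etv1 and Egr1 (adjusted p of 8.44e-05, 0.00577 and 0.0127), where 0.874% of all genes were called lower. Egr1 was the 1 gene called between CH+LIF HP and 2i+LIF HP, at 25.5 ± 18.8 against 1.54 ± 1.03 CPM (adjusted p = 0.0231), where 1.1% of all genes were called higher. In 2i+LIF HP, Etv4, Fos and Egr1 were lower than in 2i+LIF LP (0.004, 0.0222 and 0.0401), 3 of 13 where 2.05% of all genes were lower. In LIF HP against 2i+LIF HP, where edgeR called none of the 6 tested feedback genes, Phlda1, Etv4 and Etv1 were lower (0.00119, 0.00506 and 0.0149), 3 of 13 where 1.68% of all genes were lower. The difference between LIF and CH+LIF in the change from LP to HP was called for Etv4, Egr1 and Etv1 (0.0188, 0.0459 and 0.0474), 3 of 13 where 0.423% of all genes were called.

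Of 8 FGF ligands and receptors, 2 were tested. Fgf4, the main FGF ligand of these cells, had 225 ± 20.9 CPM in LIF HP, against 57.1 ± 25.3 CPM in 2i+LIF HP (SD, n = 3; adjusted p = 0.0024), and was not called between LIF HP and LIF LP, where it had 190 ± 37.8 CPM. Its LIF HP level was thus called above that of 2i+LIF HP, while Dusp6 and Spry4 had their fewest counts in LIF HP.

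Of 12 further feedback and phosphatase genes, 8 were tested, and none was called by edgeR between LIF HP and LIF LP, with 3 at an unadjusted p under 0.05 and 9.96% of all genes called. Dusp9, another ERK phosphatase, ranged from 7.53 ± 6.35 CPM in 2i+LIF PO to 60.2 ± 17.6 CPM in LIF HP (adjusted p = 0.00244), its extreme group means. Il17rd, a membrane inhibitor of FGF signalling, had 12.1 ± 5.37 CPM in LIF HP, against 33.8 ± 3.89 CPM in PO (adjusted p = 0.0377). Of all genes, 7.1% were called higher and 5.17% lower in LIF HP than in PO.

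The genes outside the set whose log2 CPM followed Dusp6 most closely over the 21 libraries were Tiparp (Pearson r = 0.961, Spearman rho = 0.879), Bmp4 (0.95 and 0.87) and Slc7a7 (0.94 and 0.769). For Spry4 they were Tgm3 (0.948 and 0.843), Slc39a14 (0.935 and 0.879) and Adam23 (0.909 and 0.818). The closest gene was Sirt1 for Spry2 (0.922 and 0.917), Stk17b for Spred1 (0.901 and 0.866), Cep63 for Dusp5 (0.81 and 0.732) and Dimt1 for Spred2 (0.772 and 0.781). These values describe likeness only: the points share libraries and depth, fall into groups of high and low libraries, and were picked as the highest of all genes tested.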

How the data were processed

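The authors deposited a table of raw counts by Ensembl gene ID for each library, in the form htseq-count writes; the submitters' processing notes name bcl2fastq, STAR 2.6.0a, HTSeq and mm10. The annotation and strand setting are not given in the sources used here; no listed gene overlaps any of the 8. Closing entries that name no gene (38 to 52.6% of entries per library) stayed out.

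Tests used edgeR 4.0.16 in R 4.3.3, TMM, filterByExpr and 14 residual degrees of freedom; DESeq2 1.42.0, which made more false calls than edgeR on simulated data, was an alternative. Library sizes were taken after the filter, a choice made after both ways had been seen, to match earlier processing. Symbols came from GENCODE M21, promoters from RefSeq (GRCm38.p6), cut to the bases before the start after matches had been seen, which removed an ETS core match in Spry2. Pooled ratios used summed counts and TMM-scaled library sizes. The 8 genes and all lists were chosen with earlier results of these data known. Named were all 8 genes, up to 4 called genes per list and comparison (Fos and Etv5 were added after their values were seen), and the genes most alike in pattern. Same-numbered replicates deviated together in all 3 pairs (r over 0.1) only for 2i+LIF LP and 2i+LIF PO (0.397, 0.345 and 0.179); the labels give no pairing. Neural markers and the list of adaptors and kinases are not reported here.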

Additional observations from a re-analysis of the deposited data

Results flagged for a closer look

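The change in Dusp6 from LP to HP differed between LIF and CH+LIF by -5.75 on the log2 scale (edgeR, adjusted p = 0.0301), being lower in HP in LIF, while the CH+LIF difference was -0.03 ± 0.59 (SE). All 3 LIF HP libraries lay below all 3 LIF LP libraries. Over all alternatives the adjusted p ran from 1.91e-06 to 0.096, and 8 of 28 alternatives ended the call.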

How the results depend on the processing

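Differences of the 6 tested genes with an unadjusted p under 0.05 changed direction under no alternative; other differences were not followed. Dusp4 and Spry1 were called in none of the alternatives that tested them. The number of genes called depended on the setting as follows. With DESeq2 it was 1 for LIF HP against 2i+LIF HP, 4 for 2i+LIF LP against PO and 2 for 2i+LIF HP against PO. It was 1 for LIF HP against PO and 2 for the LIF against CH+LIF difference in HP minus LP. It also rose for LIF HP against CH+LIF HP, where DESeq2 called Spry2 as well (adjusted p = 0.0307). Without a filter it was 4 for 2i+LIF LP and 1 for 2i+LIF HP against PO, and 1 and 3 for the LIF differences in HP minus LP from 2i+LIF and from CH+LIF. Fitting only the groups compared filters genes within them, so fewer were tested: it gave 1 of 5 for CH+LIF HP against 2i+LIF HP and 4 of 5 for LIF HP against CH+LIF HP, both without Spry4, and 0 of 4 for 2i+LIF HP against 2i+LIF LP and for 2i+LIF LP against PO, both without Dusp6 and Spry4, whose calls there have no such value. It gave 3 of 6 for the LIF against CH+LIF difference. Leaving out the 2 libraries that stood apart (2i+LIF LP replicate 1 and PO replicate 1), an alternative chosen after seeing the data, gave 4 for LIF HP against CH+LIF HP, 3 against 2i+LIF HP and 1 against PO, 1 for 2i+LIF HP against PO, and 1, 1 and 3 for the differences in HP minus LP of CH+LIF from 2i+LIF, LIF from 2i+LIF and LIF from CH+LIF. The cause of the other changes was not tested. Leaving out 1 library at a time (those outside the groups compared were added after seeing the data) gave 1 to 2 for CH+LIF HP against 2i+LIF HP, 1 to 4 for LIF HP against CH+LIF HP, 0 to 3 against 2i+LIF HP, 3 to 5 against LIF LP and 0 to 2 against PO, 0 to 2 for 2i+LIF HP against 2i+LIF LP and 0 to 1 against PO, 1 to 3 for 2i+LIF LP, 2 to 3 for CH+LIF LP, 3 to 4 for LIF LP and 2 to 3 for CH+LIF HP against PO, 0 to 1 and 0 to 3 for the CH+LIF against 2i+LIF and LIF against CH+LIF differences, and 2 to 4 in the joint test; where an arm kept 2 libraries, the shared spread served. The replicate block changed 1 call, that of Dusp5 between LIF HP and LIF LP (4 genes in place of 5). DESeq2 size factors and library sizes before the filter, the latter added after both had been seen, changed none of the counts by over 1.5 times. Calls over all genes moved more: over all settings they ran from 399 to 2539 for LIF HP against LIF LP (1060 as reported), 29 to 1176 against CH+LIF HP, 123 to 1427 against 2i+LIF HP (402) and 424 to 1918 against PO (1306), 99 to 543 for CH+LIF HP against 2i+LIF HP (215), 52 to 672 for 2i+LIF HP against 2i+LIF LP (391), 1 to 1209 for 2i+LIF LP against PO (539), 380 to 1434 for CH+LIF LP (884), 571 to 2279 for LIF LP (1272), 328 to 2150 for 2i+LIF HP (1127) and 200 to 1294 for CH+LIF HP (619), 0 to 133 for CH+LIF LP against 2i+LIF LP (0), 1 to 32 for LIF LP against CH+LIF LP (5), 3 to 276 against 2i+LIF LP (52), 0 to 21 for CH+LIF HP against CH+LIF LP (1), 1 to 48, 7 to 167 and 5 to 592 for the differences in HP minus LP of CH+LIF from 2i+LIF (2), LIF from 2i+LIF (16) and LIF from CH+LIF (45) and 880 to 2687 in the joint test (1390). These ranges are not matched to single alternatives. Counts of the tested genes under an alternative therefore have no share of all genes beside them. Depth limits Dusp4 and Spry1, with 42 and 85 counts over all libraries, and Spry4 and Dusp6 in LIF HP, with 0 and 2 counts.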
